A study of Mus musculus with 200 samples.

Results

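The cells described here are the 52 single cells labelled KO_GFPlo, out of 200 single medullary thymic epithelial cells in the series, and they were chosen by that label alone. They came from female B6xNOD mice, 5 weeks old, that were Aire knockout and carried an Aire-GFP transgene, a reporter that marks cells in which Aire is switched on. They were sorted as negative for CD45 and Ly51, positive for MHC class II and low for GFP. The other groups were 48 knockout cells high for GFP (KO_GFPhi), 39 wild-type cells low for GFP (WT_GFPlo) and 61 wild-type cells high for GFP (WT_GFPhi), all with the same reporter. The labels give the genotypes only as WT or Aire KO with AireGFP, and the strain, sex and age were the same in all groups. No animal is named, so each group is 1 sample, the cells are not replicates of a mouse, and no test between groups was possible.

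Medullary thymic epithelial cells show developing T cells a large part of the body's own proteins, each cell a small and different part, so that T cells reactive to self are removed. Aire is a nuclear regulator that raises the number of tissue-restricted genes these cells express. The medulla also holds epithelial cells that have passed the Aire stage and resemble cornified skin, epithelial cells that resemble the chemosensory tuft cells of gut and airway, and B cells, dendritic cells and thymocytes close by.

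Depth differed widely between the 52 cells, with 2429 to 227660 counts and a median of 23115.5. Each cell was therefore thinned at random to 10000 counts, and the 4 shallower cells were left out. The 48 cells that remained, 20 from the first of 2 sort dates and 28 from the second, held 1730 to 3430 genes each, with a median of 2439.5. The medians at the same depth were 2719 in WT_GFPlo, 2720 in KO_GFPhi and 2770 in WT_GFPhi. Counts were not scaled by gene length, so levels are compared between cells and not between genes. Cells are named by their number within the group. Binomial intervals are exact (Clopper-Pearson, 95%) and cover the counting of cells only. The libraries were built in 12 pools, and within a pool each cell carried its own primer, named ls or umi with a number in the labels. Pools 1 to 6 held KO_GFPlo cells of the first date alone, and pools 7 to 12 those of the second. Date and pool therefore cannot be told apart in any comparison of the dates. The 30 primers were nested in the groups: 0 of them occurred in more than 1 group, and KO_GFPlo held 8 (6 ls and 2 umi). Group and primer cannot be told apart in any comparison of KO_GFPlo with the other groups.

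Some libraries held each other's rare genes. A gene was called rare if at most 10% of the 200 cells held any count of it, and the rare genes of a cell were those at 20 or more unthinned counts in it. Of the 52 KO_GFPlo cells, 24 had at least 5 rare genes. For each such cell, and for such cells of other groups paired with a KO_GFPlo cell, the share of its rare genes that also had a count in the second cell was taken. Over 8125 ordered pairs from different pools with different primers the median share was 0% and the highest was 81.8%. Over 1030 pairs from 1 pool with different primers, leaving out those that joined ls_5 with ls_12, the median was 5.88%. Over 139 pairs with the same primer in different pools the median was 12.5%, and in 8 pairs at least 90% of the rare genes were found. Over the 6 pairs that joined a KO_GFPlo cell of primer ls_12 with the WT_GFPhi cell of primer ls_5 in the same pool the median was 95.5%, and 4 reached 90%. In all, 12 of the 9300 pairs reached 90%, and each of the 12 either shared a primer or joined ls_5 with ls_12. The ls_5 and ls_12 pairs were made a class of their own after the data were seen. Their high share is thus in part fixed by that choice. Over the whole series, 1 of 2329 pairs from 1 pool with other primers also reached 90%, at 92.5%. The plot of rare genes by kind of pair shows the ls_5 and ls_12 pairs high. Most same-primer pairs lay in the range of the rest, with an upper quartile of 38.75%, and their upper tail reached 100%.

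**Figure D1:**
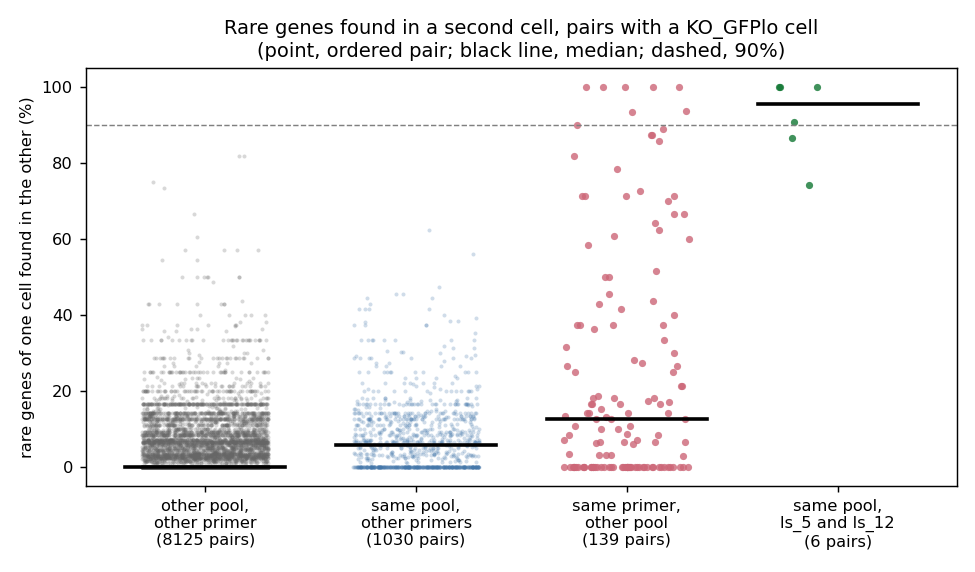
Share of a cell's rare genes (vertical axis, %) that had at least 1 count in a second cell, for ordered pairs with a KO_GFPlo cell, by kind of pair (horizontal axis). Points are pairs, black lines are medians and the dashed line is at 90%. The 12 pairs at or above it shared a primer or joined primers ls_5 and ls_12.

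Many of these pairs joined pools 11 and 12. For the 7 primers with at least 5 rare genes in the pool 12 cell, the pool 11 cell with the same primer held 85.7% to 100% of them. Cell 41 (pool 11, ls_22) held all 15 rare genes of cell 48 (pool 12) at a median of 47.6% of their counts. It also held all 14 rare genes of cell 4 (pool 2) at 45.1%. Cell 43 held all 12 rare genes of cell 50 at 62.1%. With ls_5 and ls_12 most counts were nearly level: all 22 rare genes of the WT_GFPhi cell 51 were in KO_GFPlo cell 39 at a median of 100% of their counts, and all 11 rare genes of KO_GFPlo cell 13 were in the WT_GFPhi cell 15 at 119%. Of the 35 rare genes of KO_GFPlo cell 47, 26 were in the WT_GFPhi cell 58, at a median of 10.5%. These percentages of counts compare unthinned cells that differed in depth. In total 18 of the thinned KO_GFPlo cells were in a pair at 90% or more, and 30 were not. Of the 34 cells in no such pair before thinning, 26 had fewer than 5 rare genes, so a lack of sharing is not shown for them. The cause of the sharing was not tested. The main counts are given with and without the cells involved.

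Detection followed the mean level. Among 14434 genes with a thinned count in any of the 48 cells, 2687 (18.6%) were found in 1 cell, 6751 (46.8%) in at most 10% of cells and 133 (0.921%) in at least 90%. The share found in at most 10% of cells was 46.1% in WT_GFPlo, 46.1% in KO_GFPhi and 50.2% in WT_GFPhi, with other numbers of cells. In the bin of genes with a mean of 0.875 to 1.23 counts the median gene was found in 35.4% of KO_GFPlo cells, against 37.5% in WT_GFPlo, 40.9% in KO_GFPhi and 40% in WT_GFPhi. In all, 50 genes were found in every cell, many of them ribosomal protein genes, which are not named here. Cd74, the invariant chain of MHC class II, was found in every cell, as were the class II chains H2-Aa, H2-Eb1 and H2-Ab1, the class I genes B2m and H2-K1, the actin regulator Tmsb4x, Actb, Tpt1 and the chaperone Hspa8. The summed class II and mature medullary list had 78 to 830 counts a cell (median 241.5), with its highest value in cell 48. All 7 red-cell genes in the table were at 0 in all 48 cells.

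The genes furthest below the detection usual for their mean were few and uneven. Chi3l4, a chitinase-like secreted protein, had a mean level whose bin was found in a median of 94.8% of cells, but it was found in 6. Its counts were 441 in cell 47, 93 in cell 39, 8 in cell 26, 7 in cell 32, 6 in cell 46 and 3 in cell 38. Cells 47 and 39 thus stood alone, and the first 4 cells all carried primer ls_12. Krt78, a keratin of stratified epithelia, had 165 counts in cell 1, 10 in cell 47, 8 in cell 16 and 1 in cell 39, with 89.7% of its counts in cell 1. Trpm3, an ion channel, had 155 in cell 14, 63 in cell 16 and at most 2 in 4 other cells. Lyz1, a lysozyme of Paneth cells and myeloid cells, had 166 in cell 48 and 25 in cell 41, the ls_22 cell that held all rare genes of cell 48. Saa3, an acute-phase protein, had 99 in cell 50, 32 in cell 43 and 5 in cell 35, all 3 with primer ls_4, and 1 count each in cells 33 and 40. Fabp6, the ileal bile acid binding protein, had 105 in cell 18 and 91 in cell 26 and at most 9 in 9 further cells. In the 30 cells outside the sharing pairs, Chi3l4 was found in 2, Krt78 in 2, Trpm3 in 6, Lyz1 in 2, Saa3 in 3 and Fabp6 in 8. The scatter of detection against mean shows these genes below the line of bin medians.

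**Figure D2:**
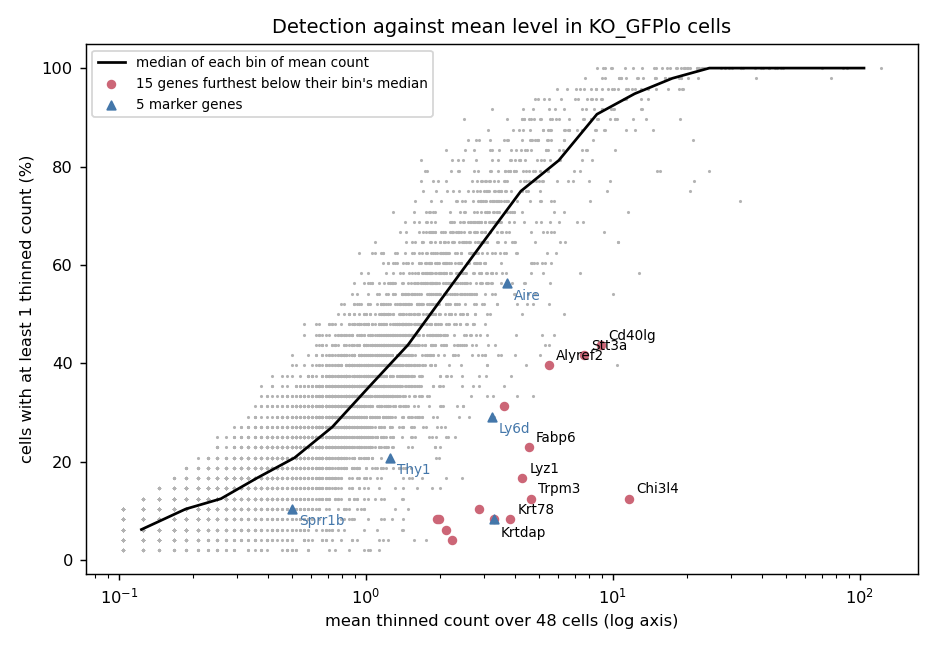
Share of the 48 thinned KO_GFPlo cells with at least 1 count of a gene (vertical axis, %) against its mean thinned count (horizontal axis, log scale). Grey points are genes, the black line joins bin medians, red points are the 15 genes furthest below their bin and blue triangles the 5 marker genes. Chi3l4 lies furthest below, at 12.5% of cells.

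Other genes were uneven in step with the primer. Among 857 genes with a mean of 2 or more thinned counts, 17 (1.98%) were separated completely by 1 primer within KO_GFPlo. The lowest cell with that primer exceeded the highest of all other KO_GFPlo cells. This rule was set after the data were seen. Stt3a, a subunit of the oligosaccharyltransferase, had 11 to 118 counts (median 29.5) in the 8 cells of ls_22, and 0 to 6 in the other 40. Idh1, the cytosolic isocitrate dehydrogenase, ran from 10 to 80 in the same 8 cells and from 0 to 6 elsewhere. Those 8 cells came from both sort dates, 3 from the first and 5 from the second. Alyref2, an mRNA export adaptor, ran from 13 to 104 in the 6 cells of ls_11 and from 0 to 8 elsewhere. Dpysl2, a cytoskeletal protein of growing axons, ran from 53 to 312 in the 7 cells of ls_12 and from 0 to 44 elsewhere. Sox9, a transcription factor of cartilage and epithelial progenitors, ran from 28 to 177 in the 4 cells of umi_11 and from 0 to 14 elsewhere. Elsewhere here means the other KO_GFPlo cells. In the other groups the highest thinned counts were 14 for Stt3a, 5 for Idh1, 9 for Alyref2, 274 for Dpysl2 and 8 for Sox9. At full depth the WT_GFPhi ls_5 cells in the pools of the ls_12 cells held 94 to 436 Dpysl2 counts.

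The umi_11 cells separated 10 of the 17 genes from the other KO_GFPlo cells. Among them were the potassium channel Kcnq1 (60 to 202 counts against 0 to 11) and the membrane adaptor Ank3 (50 to 164 against 0 to 14). In the other groups these 2 genes reached 74 and 9 thinned counts. All 4 umi_11 cells came from the second date. Of the 15 genes furthest below their bin's detection, 8 had over 60% of their summed primer means in 1 primer, although a gene led by 1 cell reaches this too. Cd40lg, the ligand of CD40 on activated T cells, had 6 to 245 counts (median 35) in the 4 cells of ls_3, and was found in 17 cells of other primers at up to 37. It was found in all 4 cells of ls_3, in all 4 of ls_21, and in none of either umi primer. The range of a gene over these cells therefore includes differences between primers, whose cause was not tested.

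**Figure D3:**
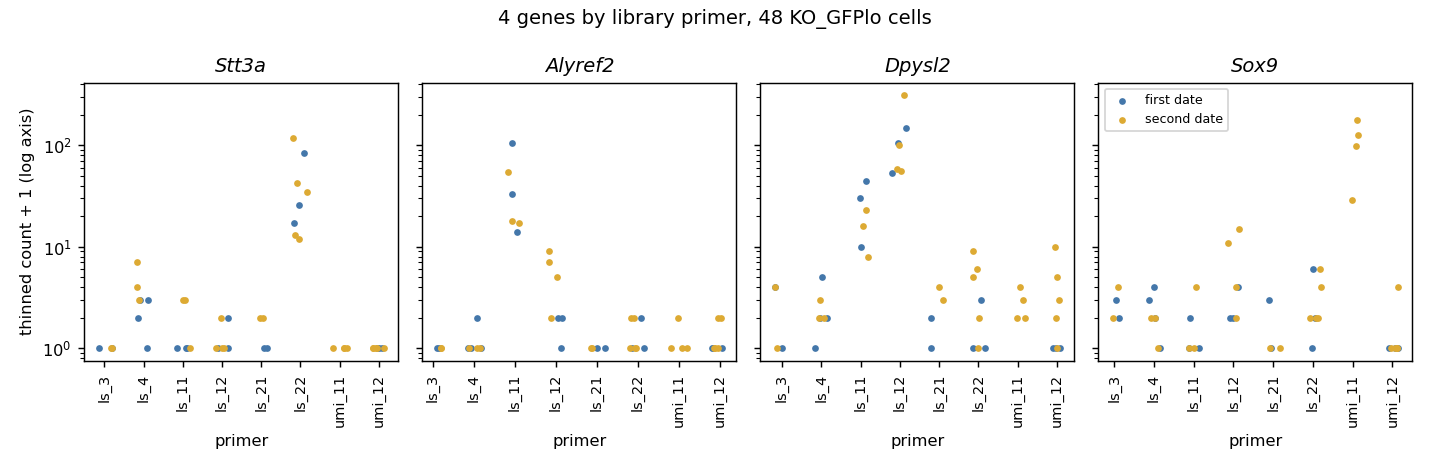
Thinned counts plus 1 (vertical axis, log scale) of Stt3a, Alyref2, Dpysl2 and Sox9 in the 48 KO_GFPlo cells by primer (horizontal axis), with blue points for the first sort date and yellow for the second. In each panel every cell of 1 primer (ls_22, ls_11, ls_12 and umi_11 in turn) lies above all other cells.

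Genes found in few cells but at high level were counted as those in at most 4 of the 48 cells with 20 or more thinned counts in at least 1 of them. This held for 83 of 14434 detected genes, or 0.575%, and 18 of the 83 were found in 1 cell. Of the 83, 2 (Krtdap and 4931403E22Rik) reached 20 counts in more than 1 cell. Close to the limits, 11 genes lay at 20 to 22 counts inside and 25 at 17 to 19 counts outside. The other groups held 77 such genes of 13711 detected in WT_GFPlo, 18 of 14023 in KO_GFPhi and 86 of 15602 in WT_GFPhi. The limit was 10% of the thinned cells of a group, which numbered 32, 44 and 55, so the limit in cells differed between groups. Of the 83, 1 was such a gene in WT_GFPlo too (1.20% of this list and 1.30% of that one), 0 in KO_GFPhi and 9 in WT_GFPhi (10.8% and 10.5%). In 8 of the 9, among them Wdr96, Tln2 and Nefl, an ls_12 cell led in KO_GFPlo and the ls_5 cell of the same pool led in WT_GFPhi. Without the ls_12 cells 1 gene was in both lists, and without the KO_GFPlo cells of sharing pairs 2. In 7 of the 83 no other group had any thinned count. The same share over all detected genes was not taken, so this number cannot be read as high or low.

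Most of these genes belonged to few cells. Cell 14 was the highest cell for 35 of the 83, cell 47 for 12 and cell 8 for 8, and 28 cells led none. Among the 48, those 3 cells also had the lowest counts in genes as a share of their unique reads, at 17.2%, 40.4% and 38.3%, against a median of 58.6%. Cells 14 and 8 share primer ls_21 and the first date. Without cell 14 the number fell to 49, and without all 3 it was 33. Without the 18 cells of the sharing pairs, cell 47 among them, it was 68 over 30 cells, where the limit is 3 cells. The part of low gene share in these genes was not tested. In the other groups the leading cell topped 16 (WT_GFPlo), 8 (KO_GFPhi) and 19 (WT_GFPhi), with gene shares of 50.4%, 18.6% and 25.9%; the WT_GFPhi cell is the ls_5 cell of the pool of cell 47. The first sort date held the leading cell of 57 genes and the second of 26.

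**Figure D4:**
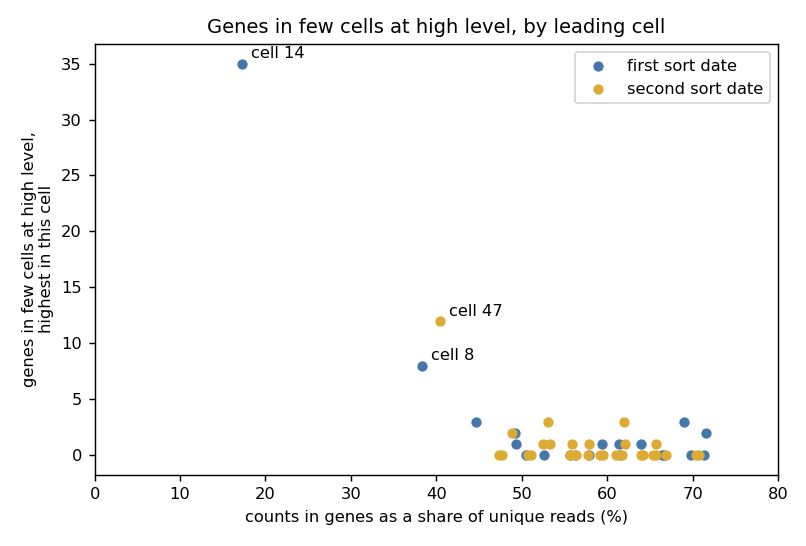
Number of the 83 genes for which a cell held the highest count (vertical axis) against its counts in genes as a share of unique reads (horizontal axis, %), 48 cells coloured by sort date. Cells 14, 47 and 8 lie at the lowest shares and lead 35, 12 and 8 genes.

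The genes led by cell 14 were of several kinds. They included Sgol2, a protector of chromosome cohesion (106 counts against 1 in the next cell), Tmeff2, a transmembrane protein of brain and prostate (99 against 1), Kntc1, a kinetochore protein (88 against 2), and Mapk4 (82 against 11). Nefm, the medium neurofilament, was found in cell 14 alone at 36 counts, and Fmo9, a flavin monooxygenase, at 49. The median gene length on the genome, introns included, was 49.5 kb for the 31 of the 35 with a known position, against 25.2 kb over all detected genes. It was 56.8 kb for the genes led by cell 47 and 30.3 kb for those led by the other cells. Over all 83 genes it was 44.7 kb, so length was not particular to cell 14. Cell 14 held 9 Aire counts, 32 epithelial and 16 leukocyte counts.

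Cell 50 led genes of liver secretion. Gc, the vitamin D binding protein, was at 52 there and 15 in the next cell, Serpina7, the thyroxine binding globulin, at 44 and 16, and Saa1, an acute-phase protein, at 39. This cell also had the most counts of Ly6d, a surface protein of stratified epithelium and B cells (63), and of Krt5, the basal keratin (62). In all, 4 of the 19 detected cornified genes were among the 83 (Krtdap, Krt77, Krt78 and Cnfn), or 21.1% against 0.575% of all detected genes, and 3 of the 4 were led by cell 47. The same held for 1 of 67 detected genes of 9 lists of tissue-restricted antigens (Saa1), or 1.49%. The milk casein Csn2 was not among them, since it was found in 36 of 48 cells, with 256 of its 987 counts in cell 42.

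Mixed identities were read at the same depth from 4 sets of genes. A cell carried the cornified, tuft or leukocyte set if it held at least 2 genes and 5 counts of it, and Aire if it held 1 count. The cornified set was carried by 13 of 48 cells (27.1%, interval 15.3% to 41.8%), the tuft set by 8 (16.7%, 7.48% to 30.2%), and Aire by 27 (56.2%, 41.2% to 70.5%). The leukocyte set was carried by 48 of 48, as it was by all 44 KO_GFPhi, 55 WT_GFPhi and 32 WT_GFPlo cells, so this rule does not separate cells. At full depth, over all 52 cells, the numbers were 23, 18, 35 and 52. In the 30 cells outside the sharing pairs they were 9 (30%), 6 (20%), 17 (56.7%) and 30.

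By date the cornified set was carried by 5 of 20 and 8 of 28 cells, the tuft set by 5 and 3, and Aire by 16 and 11. At the same depth the cornified set was carried by 16 of 32 WT_GFPlo, 10 of 44 KO_GFPhi and 26 of 55 WT_GFPhi cells, and the tuft set by 4, 2 and 8. These counts are given side by side, since primers are nested in the groups. The map of list sums by cell shows high cornified sums in few cells and leukocyte sums in all.

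**Figure D5:**
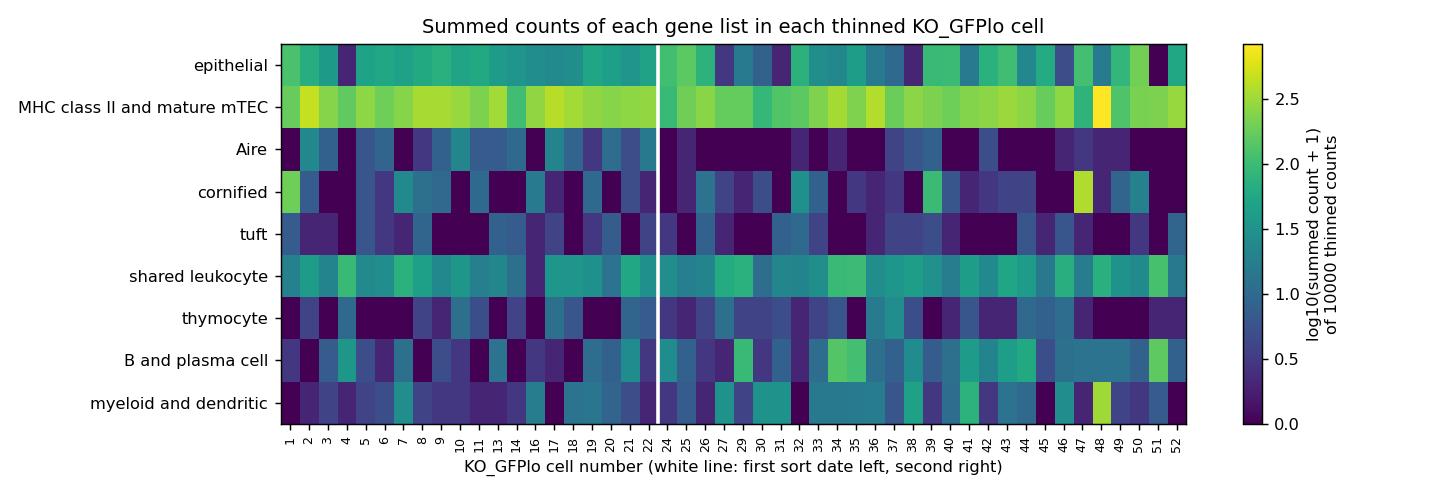
Summed thinned counts of 9 gene lists (rows) in the 48 KO_GFPlo cells (columns, by number, first sort date left of the white line), coloured as log10(sum + 1). Cells 47, 1 and 39 have cornified sums of 376, 186 and 98, and cell 48 has a myeloid sum of 314.

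Cornified genes were concentrated in cell 47. Of the 52 genes of the list 19 were detected in any cell. The envelope genes Lor, Flg and Ivl and the keratins Krt1 and Krt2 were at 0 in all 48. Dsg1a, a desmosomal cadherin, was the most widespread, in 17 cells at up to 9 counts. Cell 47 held 376 of 857 counts of the list, or 43.9%, over 17 genes. Krtdap, a secreted protein of differentiating keratinocytes, was at 119, the protease inhibitor Spink5 at 47, Sprr1a at 43, Krt77 at 39, Cnfn at 30, Dmkn at 27 and Sprr1b at 10; Sprr1a, Sprr1b and Cnfn are parts of the cornified envelope. Krtdap was found in 4 of 48 cells (8.33%, 2.32% to 19.98%), with 119 counts in cell 47, 31 in cell 39, 5 in cell 32 and 3 in cell 26. All 4 carried primer ls_12 and came from the second date, and the 41 cells of other primers held 0 thinned counts; at full depth 7 of 52 cells held Krtdap. In the other groups it was found in 7 of 32 WT_GFPlo, 6 of 44 KO_GFPhi and 12 of 55 WT_GFPhi cells. Cnfn was found in cells 47 and 39 alone, at 30 and 12. Sprr1b was found in 5 cells, at 10 in cell 47, 9 in cell 7, 3 in cell 39 and 1 each in cells 16 and 19.

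The promoters printed here belong to 4 genes that cell 47 held together, shown 250 bases before to 50 after the start, from RefSeq on build GRCm38.p6. Capitals mark TATAAA, the TATA box, and TGANTCA, a core bound by AP-1 factors, searched on both strands. Krtdap lies at chr7:30787655-30787954 (plus strand), Sprr1a at chr3:92485832-92486131 (minus), Sprr1b at chr3:92438730-92439029 (minus) and Cnfn at chr7:25369675-25369974 (minus).
Krtdap: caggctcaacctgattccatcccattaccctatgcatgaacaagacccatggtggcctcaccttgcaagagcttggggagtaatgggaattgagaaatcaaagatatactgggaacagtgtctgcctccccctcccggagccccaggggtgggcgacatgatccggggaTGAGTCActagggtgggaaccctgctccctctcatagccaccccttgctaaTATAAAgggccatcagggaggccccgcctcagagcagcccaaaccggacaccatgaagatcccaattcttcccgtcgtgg
Sprr1a: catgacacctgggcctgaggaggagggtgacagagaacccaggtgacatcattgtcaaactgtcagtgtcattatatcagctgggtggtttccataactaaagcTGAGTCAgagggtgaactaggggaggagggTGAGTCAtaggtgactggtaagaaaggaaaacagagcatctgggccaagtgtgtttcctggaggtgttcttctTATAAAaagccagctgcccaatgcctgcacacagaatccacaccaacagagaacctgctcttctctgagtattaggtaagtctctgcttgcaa
Sprr1b: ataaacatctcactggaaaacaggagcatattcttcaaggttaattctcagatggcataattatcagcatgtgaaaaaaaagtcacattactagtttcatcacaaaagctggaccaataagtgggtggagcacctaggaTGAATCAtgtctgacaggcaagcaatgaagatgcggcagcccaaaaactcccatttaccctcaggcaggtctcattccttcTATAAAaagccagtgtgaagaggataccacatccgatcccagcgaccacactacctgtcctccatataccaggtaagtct
Cnfn: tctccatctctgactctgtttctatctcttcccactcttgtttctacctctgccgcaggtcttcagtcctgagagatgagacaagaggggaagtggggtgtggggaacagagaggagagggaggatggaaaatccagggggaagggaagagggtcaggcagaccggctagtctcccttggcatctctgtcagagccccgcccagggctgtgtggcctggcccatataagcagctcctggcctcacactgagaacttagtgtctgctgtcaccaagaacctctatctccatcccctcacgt
Krtdap and Sprr1b had 1 match of each motif, Sprr1a had 1 TATAAA and 2 TGANTCA, and Cnfn had no match in this window. Of the 19 cornified genes detected, 16 had a promoter listed. TATAAA was in 7 of the 16 and TGANTCA in 7, against 13.6% and 7.81% of all 32851 promoters. Sprr1a, Sprr1b, Sprr2b and Sprr2i had both motifs and Sprr3 had TATAAA. They are of the small proline-rich family and are not separate cases. Outside that family Krtdap had both, Krt10 had TATAAA, and Sbsn and Dmkn had TGANTCA. Krt77, Krt78 and Sprr2a3 were among those with neither. A match is a description of these letters and not a bound site.

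Cells 39 and 47, with the same primer in pools 11 and 12, both held many cornified genes at full depth. That depth was unlike, at 111013 counts in cell 39 and 37244 in cell 47. Krtdap was 296 in cell 39 and 450 in cell 47 (65.8%), Sprr1a was 105 and 168 (62.5%), Cnfn was 74 and 108 (68.5%) and Spink5 was 136 and 184 (73.9%). These ratios were taken for 8 chosen genes of the 17 cornified genes in cell 47. Their lowest and highest were 54.7% for Krt78 and 80.2% for Dmkn. The other cornified genes were not compared at full depth. At the thinned depth, Asprv1 was 2 in cell 39 and 15 in cell 47, Krt10 was 2 and 6, and Dsg1a was 4 and 5. Outside the list Chi3l4 stood at 67.9% and Cst6, a cysteine protease inhibitor of skin, at 62.9%, while Aire was 76 in cell 39 and 15 in cell 47, and Krt8, a keratin of simple epithelia, was 107 and 45. The WT_GFPhi cells of primer ls_5 in the same pools held the cornified genes as well, with 69 Krtdap counts in cell 58 (pool 12) and 61 in cell 51 (pool 11). Krtdap was found in 2 of the 30 cells outside the sharing pairs, cells 32 and 26.

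Other cells carried the cornified set with other genes. Cell 1 held 186 counts, of which 165 were Krt78 and 13 Krt10, the keratin of suprabasal skin, with 0 Krtdap and 0 Aire. Cell 16, which like cell 1 carried primer ls_3, held 8 Krt78 and 3 Krt10. Cell 7 held 14 Sprr1a and 9 Sprr1b, and cell 19 held 8 and 1, both with primer ls_11. Cell 50 held 17 Spink5. Cells 49, 33, 5 and 40 passed with 5 to 8 counts in all. By primer the set was carried by 3 of 4 ls_3, 3 of 6 ls_11, 4 of 7 ls_12, 2 of 4 ls_21 and 1 of 7 ls_4 cells. It was carried by 0 of 8 ls_22, 0 of 4 umi_11 and 0 of 8 umi_12 cells. Without the 7 cells of ls_12, 9 of 41 cells (21.95%) carried the set. With at least 20 counts required, 5 of 48 did. Epithelial genes exceeded or equalled leukocyte genes in 11 of the 13 cells, and 2 of the 21 cells with more leukocyte than epithelial counts carried the set.

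Tuft genes were at low counts throughout. Of 22 genes 11 were detected, and Pou2f3, the factor that tuft cells depend on, Il25 and Chat were at 0 in all 48 cells. The highest sum in a cell was 9 counts (cell 32), and 0 of 48 cells reached 20. A fixed floor of 3 cells, set for any count of 0, equals 6.25%. It is not an exact interval, whose upper limit lies above it. Dclk1, a kinase of tuft cells, was at 5 in cell 14 and Gng13, a G protein subunit of taste and tuft cells, at 8 in cell 8, 7 in cell 52, 5 in cell 1 and 4 in cell 5. Trpm5, the cation channel of taste transduction, was found in 2 cells at 1 count each. Sh2d6, an adaptor of tuft cells, was at 5 in cell 13, 4 in cell 32, 3 in cell 20 and 1 in cell 3, all with ls_12, as were both cells with the kinase Bmx (cells 13 and 20, 2 counts each). At full depth cell 13 held 28 Sh2d6 and 11 Bmx counts, and the WT_GFPhi cell of ls_5 in its pool held 31 and 12. Over the 184 cells of other primers in the series, Sh2d6 was found in 4 and Bmx in 3. Without ls_12 the tuft set was carried by 4 of 41 cells (9.76%).

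Leukocyte genes formed the widest mix. Lcp1, an actin-bundling protein, was found in 43 of 48 cells, Cd52 in 42 and the GTPase Rac2 in 41, which are also found in 93.2%, 79.5% and 81.8% of KO_GFPhi cells. After genes found in over 20% of KO_GFPhi cells were removed, 61 of 76 genes remained, and 37 of 48 cells carried the set (77.1%, 62.7% to 88.0%), 10 of 20 on the first date and 27 of 28 on the second. The same list was carried by 18 of 44 KO_GFPhi, 22 of 32 WT_GFPlo and 42 of 55 WT_GFPhi cells. This list was trimmed after the data were seen. The list trimmed by KO_GFPhi must be low there by its own rule. The sum of all 76 leukocyte genes exceeded that of 16 epithelial genes in 21 of 48 cells (43.8%, 29.5% to 58.8%), 5 of 20 and 16 of 28 by date, and in 12 of the 30 cells outside the sharing pairs. By primer this held for 6 of 8 ls_22 cells and 4 of 4 umi_11 cells, and for 0 of 7 ls_12 and 0 of 4 ls_3 cells. With the 61 genes of the trimmed list it held in 15 of 48 cells, 1 of 20 on the first date and 14 of 28 on the second, and in 8 of the 30 cells outside the sharing pairs. These sums depend on the genes in each list, so they order cells and do not measure a share of 2 cell types.

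B cell genes were highest in cells 51, 34, 35, 29 and 44, with sums of 154, 136, 110, 91 and 58. Cd79a, part of the B cell receptor, was at 76, 37, 19, 22 and 25 in them. Cell 51 held 0 epithelial counts and 0 Aire, 116 counts of the shared leukocyte list and 5 of Ptprc, the CD45 gene. Cell 34 had 22 epithelial counts and cell 35 had 41. Igha, the heavy chain of IgA, was at 33 in cell 35 and 18 in cell 43, both of primer ls_4. Cd79a was found in 16 cells, 11 of 21 with more leukocyte than epithelial counts and 5 of 27 of the rest, with median full depths of 28341 and 23963. Cells 51 and 44 were a sharing pair, and without the 18 paired cells Cd79a was found in 6 of 30. Ly6d was found in 14 cells, at 63 in cell 50, 28 in cell 47, 25 in cell 43 and at most 6 in the other 11, and in 4 of the 30 cells outside the pairs. By primer Ly6d was found in 7 of 8 ls_22, 3 of 7 ls_4, 2 of 7 ls_12 and 2 of 4 umi_11 cells, and in no cell of another primer. The sort was for cells negative for CD45, read in a different dye on each date. First-date CD45 intensity was -62699 to -5733 in cells with more leukocyte than epithelial counts, and -91966 to 393 in the rest. On the second date it was -1863 to 403 (median -11.5) and -2702 to 389 (median -395).

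Myeloid and dendritic genes were highest in cell 48, with a sum of 314 that included 166 Lyz1, 85 Lyz2, 21 Tyrobp and 17 Fcer1g; its epithelial sum was 15 and its Aire count 1. Cell 41, its partner, had a sum of 77. Ccr7, the receptor that guides mature dendritic cells, was at 22 in cell 30, 19 in cell 38, 18 in cell 27 and 14 in cell 31, which held 7, 1, 2 and 1 epithelial counts. Ccl22, a chemokine of dendritic cells and of medullary epithelium, was found in 21 of 48 cells (43.8%), with 74 in cell 27 and 68 in cell 48. It was found in 15 of the 21 cells with more leukocyte than epithelial counts and in 6 of the other 27, and in 3 of 32 WT_GFPlo, 7 of 44 KO_GFPhi and 6 of 55 WT_GFPhi cells. In the 30 cells outside the sharing pairs it was found in 12.

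Thymocyte genes were at low counts. Of 23 genes 17 were detected, in 34 of 48 cells, and 11 cells carried the list by the same rule, 3 of 20 on the first date and 8 of 28 on the second. The highest sum was 26 counts, in cell 37. The T cell receptor genes Cd3e and Trac and the recombination genes Rag1 and Dntt were at 0 in all 48 cells. Thy1, a surface protein of T cells, was found in 10 cells (20.8%, 10.5% to 34.99%), at 15 in cell 37, 11 in cell 17, 10 in cell 10, 8 in cell 46, 6 in cell 22 and at most 3 in 5 more. Cells 10 and 17 had no other thymocyte gene above 1 count, and held 21 and 20 Aire counts. Both carried primer ls_4 and came from the first date, as did cell 22 with 14 Aire counts. By primer Thy1 was found in 3 of 7 ls_4, 4 of 8 umi_12, 2 of 6 ls_11 and 1 of 8 ls_22 cells. No cell of another primer held it at this depth. Tcf7, a transcription factor of T cells, was found in 18 cells and in 70.5% of KO_GFPhi cells. Cell 27 held 7 counts of Cd8a. Cell 4 had 91 shared leukocyte counts, 1 epithelial count and the highest proliferation sum, 73.

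Aire was found in 27 of 48 cells at 1 to 22 counts, with 22 in cell 2, 21 in cell 10 and 20 in cell 17. Which part of the gene the knockout removes is not given in the sources used here, so these counts do not check the label. It was found in 80% of first-date and 39.3% of second-date cells, whose GFP intensity also differed. GFP intensity was 2360 to 12224 (median 9060.5) in the 16 first-date cells with Aire, and 4017 to 6455 in the 4 without. On the second date it was 1037 to 6425 (median 2551) in the 11 with Aire, and 337 to 6003 (median 2440) in the 17 without. Spearman's rho of Aire count and GFP intensity was 0.56 over 48 cells, 0.27 within the first date and 0.14 within the second. At full depth the Aire counts of the ls_12 cell and of the WT_GFPhi ls_5 cell in its pool were 7 and 11 in pool 2, 34 and 42 in pool 5, 13 and 18 in pool 6, 0 and 1 in pool 8, 2 and 6 in pool 10, 76 and 80 in pool 11, and 15 and 15 in pool 12. Those counts follow depth as well: at 10000 counts they were 7 and 8, 6 and 4, 10 and 7, 0 and 1, 1 and 5, 7 and 9, and 2 and 7 in the same order. Without ls_12, Aire was found in 21 of 41 cells (51.2%). It was found in 35 of 44 KO_GFPhi, 17 of 32 WT_GFPlo and 52 of 55 WT_GFPhi cells.

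Cells with several identities were counted last. At least 2 of the 4 sets were carried by 35 of 48 cells (72.9%, 58.2% to 84.7%) and at least 3 by 11 (22.9%, 12.03% to 37.3%). Since every cell carried the leukocyte set, the first count is the number of cells with any of the other 3. With the trimmed leukocyte list 29 of 48 cells (60.4%) carried at least 2 sets, 13 of 20 and 16 of 28 by date. Cornified and tuft sets met in 4 cells (1, 5, 26 and 32), cornified and Aire in 6, and tuft and Aire in 5. Cells 5 and 32 carried all 4. In cell 5 the cornified counts were 3 Dsg1a, 1 Sprr1a and 1 Krt10, and the tuft counts 4 Gng13 and 1 Dclk1, so both calls lay at the limit. In the 30 cells outside the sharing pairs 23 (76.7%) carried at least 2 sets.

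Epithelial and leukocyte counts opposed each other across cells. Spearman's rho of the 2 sums was -0.58 over 48 cells, -0.22 on the first date and -0.60 on the second, and with the trimmed list -0.63, -0.64 and -0.61; the cells share pools, primers and a fixed total. Krt8 was found in 42 cells at up to 40 counts and the adhesion molecule Epcam in 27 at up to 22. Epcam was found in 20 of the 27 cells led by epithelial genes and in 7 of the 21 led by leukocyte genes, while Ptprc was found in 3 and 12. With the trimmed list Epcam was found in 23 of 33 and 4 of 15, Ptprc in 6 and 9, Cd79a in 7 and 9, and Ccl22 in 8 and 13. The MHC class II intensity of the sort had medians of 52370.5 in second-date cells led by leukocyte genes and 65146 in those led by epithelial genes, and on the first date 61352 and 55133. Those ranges overlapped on both dates.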

How the data were processed

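The deposited table holds whole-number counts of reads or tags per gene for 200 single cells. Per the submitters' processing notes, TopHat2, TopHat, Picard 1.79, SAMtools 0.1.19, HTSeq and build mm10 were used; their settings and whether identifiers were collapsed are not given in the sources used here, and in 12 of the 52 cells the counts exceed the deposited identifier number. Flow cytometer intensity per cell was deposited in arbitrary units, and its processing is not given.

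Counts were drawn at random without replacement down to 10000 a cell (seed 1; numpy 2.4.6, pandas 2.3.3, Python 3.11.15; intervals with scipy 1.17.1), which makes 1 thinned count 100 CPM, and shallower cells were left out. Detection was compared in 20 equal bins of log mean for genes with a mean of at least 0.1. Named genes were the 5 markers, the genes in few cells at high level with the largest mean in their cells, 10 genes found in most cells, the 15 furthest below their bin's detection, and the leading or calling members of each list; genes named for primers, pairs or overlap, list genes at 0, and Ccl22, Csn2, Epcam and Ptprc, were added after their values were seen. Of 38406 genes, 16848 were at 0 everywhere. Gene positions are from GENCODE on the same build. The members and lists were chosen with earlier results of these data known. The steps were tested on simulated data. Of the alternatives, those on thinning, thresholds, dates, pools and ls primers were chosen first; those on gene share, primers, sharing pairs and the trimmed list came after the data were seen.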

Additional observations from a re-analysis of the deposited data

How the results depend on the processing

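Of 95 alternatives apart from leaving out a pool or primer, 61 moved a value within its limit and 34 beyond it, the limit being the exact interval for a share of cells, 1.5 times for the number of genes in few cells at high level, and 1 SD over cells (490) for genes per cell; the cause was not tested beyond what each construction fixes. Depth moved most results. Thinning to 5000 counts gave 1793 genes per cell, 41 genes in few cells at high level, the tuft set in 5.88% of cells and at least 2 identities in 56.9%. Thinning to 20000 gave 3178 genes, 156 such genes, cornified 46.7%, tuft 36.7% and at least 2 identities 86.7%. Without thinning, cornified was 44.2%, tuft 34.6% and at least 2 identities 88.5%. A list was thus not detectable in a shallow cell rather than shown absent. Requiring 3 genes gave cornified 14.6% and tuft 6.25%; 1 gene gave 68.8%, 64.6% and at least 2 identities 95.8%; 20 counts gave cornified 10.4% and tuft 0%. The first date alone gave 54 genes in few cells at high level, Aire 80% and at least 2 identities 95%; the second gave 15, 39.3% and 57.1%. Aire at 5 or more counts gave 31.2%. At least 2 identities held in 92.6% of cells with no more leukocyte than epithelial counts. The number of genes in few cells at high level was 40 at most 5% of cells, 189 at most 20%, 283 at 10 counts and 16 at 50 counts. After seeing the data, leaving out cell 14 gave 49 and leaving out the 3 cells of lowest gene share 33, and the trimmed leukocyte list was carried by 77.1%; with it, leukocyte exceeded epithelial counts in 31.25% of cells, against 43.8%. Leaving out each pool or primer in turn gave 2372 to 2518 genes per cell, 46 to 101 genes in few cells at high level (46 without pool 5, and 47 without primer ls_21, both of which hold cell 14), cornified 21.95% to 32.5%, tuft 9.76% to 20%, leukocyte 100% throughout, Aire 51.2% to 61.4% and at least 2 identities 68.3% to 79.5%; leaving out primer ls_12 gave the lowest value of all but the number of genes in few cells at high level and the leukocyte set. No paired analysis was possible because each group is 1 sample with no animal named and replicate numbers only name cells.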
